A study of Mus musculus with 4 samples.

Results

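The 80 genes described here are the heat shock proteins and molecular chaperones of the mouse liver cell. They were taken by symbol from the 22079 gene identifiers of the deposited table, of which 22061 matched a GENCODE M21 symbol. The rule keeps the protein-coding Hspa, Hspb, Hsp90, Hspd1, Hspe1, Hsph1, Dnaja, Dnajb, Dnajc and Cct genes. The rule reads symbols and types of gene, not levels. Of the 80, 45 encode J-domain proteins, 11 Hsp70 proteins, 3 Hsp110 proteins, 3 Hsp90 proteins, 7 small heat shock proteins and 7 subunits of the ring chaperonin TRiC. By the compartment where the protein works, 36 were cytosolic, 7 belonged to TRiC, 13 to the endoplasmic reticulum (ER) and 10 to mitochondria. A further 14 act in vesicles, the nucleus or cilia, or were not assigned to a compartment.

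RNA came from primary hepatocytes of 2 Prom1-/- livers (KO) and 2 wild-type livers (WT), all from C57BL/6 males aged 8 weeks. After isolation the cells of both genotypes attached for 4 h in a medium holding 10% foetal serum and 10 nM dexamethasone, a synthetic glucocorticoid, and then stayed overnight without serum. Per the labels, the replicates of a genotype were biological and the comparison asks what loss of Prom1 does to the hepatocyte transcriptome without serum. Whether the allele removes Prom1 only in hepatocytes is not given in the sources used here, and the p-values below measure the spread among these 4 libraries.

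Chaperones bind unfolded stretches of other proteins and let them fold, be carried across membranes or be handed to the proteasome. Hsp70 proteins do so in cycles of ATP hydrolysis that J-domain proteins start and that Hsp110 proteins, acting as nucleotide exchange factors, end. Hsp90 completes the folding of kinases and steroid receptors, small heat shock proteins hold aggregating proteins, and the ring chaperonins enclose their substrates. In the cytosol the transcription factor HSF1 drives many of these genes through the heat shock element, whereas in the ER the unfolded protein response drives others through the ER stress element. Hepatocytes secrete most plasma proteins and carry a heavy ER folding load.

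Prom1, the deleted gene (ENSMUSG00000029086, minus strand, chr5:43993620-44102032 in mm10), encodes a glycoprotein of membrane protrusions. Its KO values were 0 in KO 1 and 0.0458 FPKM in KO 2 (fragments per kilobase of transcript, scaled to library size), against 0.571 and 1.22 FPKM in WT 1 and WT 2. The KO values were below both WT values. The difference in log2(FPKM + 1) was -0.87 (SE 0.19), with an unadjusted p of 0.00935 by limma, a linear model that borrows its spread from all genes, and a Benjamini-Hochberg adjusted p of 0.755 over 15152 genes. Estimated depth was 15100000 to 17300000 fragments per library, and 10327 to 10424 genes reached 1 FPKM. A 2 kb transcript at 1 FPKM then rests on 27.2 to 31.2 fragments. Kupffer cell markers, which denote liver macrophages, summed to 436 and 504 FPKM in the KO libraries and to 384 and 380 FPKM in the WT libraries, of which Cd68 made up 393 and 465 FPKM in KO and 357 and 351 FPKM in WT. Of 12 such markers 10 were tested and none was at 0 in every library. Among the tested, 7 had a higher KO mean, with Marco, Lyz2 and Cd5l higher at an unadjusted p under 0.05, and 3 a lower one, C1qa, C1qb and C1qc. Sinusoidal endothelial markers summed to 88.4 and 46.1 FPKM in KO and to 62 and 59.3 FPKM in WT. Stellate cell markers summed to 54.2 and 22.9 FPKM in KO and to 33.3 and 33.9 FPKM in WT. Cholangiocyte markers summed to 59 and 37.2 FPKM in KO and to 53 and 42.9 FPKM in WT. In each of these sums KO 1 was the highest library and KO 2 the lowest. The part of RNA from macrophages or these other cells in the values below was not tested. Hepatocyte markers summed to 38809 and 47971 FPKM in KO and to 40785 and 15453 FPKM in WT, a sum that Alb dominates and that is low in WT 2, where Alb was listed at 0. Of these 12 markers 4 had a higher and 8 a lower KO mean, and Hnf4a (64.9 and 59.5 FPKM in KO, 90.4 and 95.8 FPKM in WT) and Tat (62.5 and 69.8 FPKM in KO, 82.6 and 80.8 FPKM in WT) were lower at an unadjusted p under 0.05. Alb is among the 4 with a higher KO mean, and its 0 in WT 2 can be a failed estimate. The low WT 2 sum was not shared by the list. Relative to each gene's mean on the log2 scale, the median marker was at 0.117 in WT 2 and -0.018 in WT 1. It was at -0.228 in KO 1 and 0.096 in KO 2. In bulk RNA, fewer cells of a type and less RNA per cell cannot be told apart.

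Among genes with a promoter given, the ER stress element was found in 3 of 11 ER members. A heat shock element was found in 11 of 30 cytosolic members and in 1 ER member, so most members of either group lacked both. The promoters of the genes that the results below turn on are shown first. Each stretch is the 250 bases before the RefSeq start in GRCm38.p6, 5′ to 3′ on the gene's own strand, and capitals mark the motif. RefSeq windows were given for 65 of the 80 members, 49 of them among the genes tested. The first 3 hold an ER stress element, which is CCAAT, 9 bases of any kind and CCACG on either strand. The windows are Hspa5 at chr2:34771840-34772089 on the plus strand, Hsp90b1 at chr10:86705445-86705694 on the minus strand and Dnajc3 at chr14:118937682-118937931 on the plus strand.
Hspa5: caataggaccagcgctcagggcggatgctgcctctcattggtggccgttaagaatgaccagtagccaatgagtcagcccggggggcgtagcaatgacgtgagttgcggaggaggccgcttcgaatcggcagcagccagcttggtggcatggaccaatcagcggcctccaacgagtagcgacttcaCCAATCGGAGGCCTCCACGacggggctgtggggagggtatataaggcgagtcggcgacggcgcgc
Hsp90b1: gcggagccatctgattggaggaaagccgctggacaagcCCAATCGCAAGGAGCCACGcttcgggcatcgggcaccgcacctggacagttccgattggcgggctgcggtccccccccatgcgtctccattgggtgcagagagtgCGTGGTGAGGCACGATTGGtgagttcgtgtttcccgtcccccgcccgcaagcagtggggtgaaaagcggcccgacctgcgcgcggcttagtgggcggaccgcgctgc
Dnajc3: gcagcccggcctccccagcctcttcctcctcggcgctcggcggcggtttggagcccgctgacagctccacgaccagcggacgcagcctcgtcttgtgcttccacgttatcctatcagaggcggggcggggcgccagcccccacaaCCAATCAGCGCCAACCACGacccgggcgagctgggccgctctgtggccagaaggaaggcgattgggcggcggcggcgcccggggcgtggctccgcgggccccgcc
Hsp90b1 held 2 matches, 1 on each strand, while Hspa5 and Dnajc3 held 1 each. In the windows of 300 bases, which run 50 bases past the start, the element was found in 27.3% of the 11 windows of ER members and in 39 (0.119%) of all 32851 windows. No member outside the ER group had it.

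The other 3 stretches hold a heat shock element, searched as GAANNTTC or TTCNNGAA, each of which reads alike on both strands. They are Hspe1 at chr1:55087898-55088147 on the plus strand, Hspa1b at chr17:34959239-34959488 on the minus strand and Hsph1 at chr5:149636316-149636565 on the minus strand.
Hspe1: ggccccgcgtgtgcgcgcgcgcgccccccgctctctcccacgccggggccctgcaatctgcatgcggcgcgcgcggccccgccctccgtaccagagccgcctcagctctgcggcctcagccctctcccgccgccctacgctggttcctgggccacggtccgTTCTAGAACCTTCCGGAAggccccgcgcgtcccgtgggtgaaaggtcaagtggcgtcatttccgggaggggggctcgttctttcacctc
Hspa1b: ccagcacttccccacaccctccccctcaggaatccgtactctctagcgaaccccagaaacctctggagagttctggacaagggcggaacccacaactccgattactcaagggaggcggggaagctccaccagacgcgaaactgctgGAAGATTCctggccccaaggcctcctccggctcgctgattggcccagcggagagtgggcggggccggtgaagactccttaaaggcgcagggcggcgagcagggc
Hsph1: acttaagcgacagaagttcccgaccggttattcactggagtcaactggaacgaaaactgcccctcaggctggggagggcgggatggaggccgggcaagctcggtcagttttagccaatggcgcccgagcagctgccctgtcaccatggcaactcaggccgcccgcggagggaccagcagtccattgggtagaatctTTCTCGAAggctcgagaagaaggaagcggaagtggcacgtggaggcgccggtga
In Hspe1 3 overlapping matches form the run in capitals. That run also lies in a window of Hspd1, which is head to head with Hspe1. That window shares 285 of 300 bases with the Hspe1 window, on opposite strands. Another window of Hspd1, at a start further upstream, held 0 matches. Whether the run acts on Hspd1 was not tested. A heat shock element was found in 25% of the 84 windows of members, in 30.2% of cytosolic windows, in 9.09% of ER windows and in 15.1% of all windows. The CCAAT box alone was in 39.3% of the members' windows and in 37.4% of all windows. Hspa1a, the twin of Hspa1b, differs from it at 3 of the 250 bases.

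Across the set, no chaperone gene differed between KO and WT beyond the threshold. Of the 80 members, 62 had a mean of at least 1 FPKM and entered the test, 10 were above 0 with a lower mean, and 8 were listed at 0 in every library (Cct8l1, Dnajb7, Dnajb8, Dnajb13, Dnajc5b, Dnajc5g, Hspb3 and Hspb9). With limma over 10407 genes, 0 members passed an adjusted p of 0.05, Hspa5 coming nearest at 0.586. Over all genes tested the same count was 0 (0%); it was 5 without KO 1 and 8 without WT 1, none of them a member of the set. The 10 genes under the filter were Hspa1a, Hspa1l, Hspa2, Hspa12a, Hspa12b, Hspb2, Hspb7, Dnajb3, Dnajc6 and Cct6b. Unadjusted, at p under 0.05, 2 members were higher in KO libraries (Hspa5 and Hspb6) and 1 was lower (Dnajc24), beside 323 (3.1%) and 436 (4.19%) of all genes tested. Member counts at that p are thus near or under the share of all genes.

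Differences between the genotypes were small for chaperones. The median log2 difference, KO minus WT, was 0.02 over the 62 members and -0.001 over all 10407 genes, and 34 members had a higher and 28 a lower KO mean. Members lay between -0.44 and 0.45, with none beyond 0.5 in either direction, whereas 4.13% of all genes lay beyond it. The median absolute difference was 0.10 for members and 0.12 for all genes. Between libraries of 1 genotype, the median distance of the members was 0.12 within KO and 0.11 within WT. Single libraries spread more than means of 2 libraries, so these distances cannot tell whether the genotype differences exceed the spread. Both KO libraries were above both WT libraries for 15 members (18.3% of all genes tested) and below both for 16 (19.8% of all genes). Together these are 50% of the members and 38.1% of all genes, and no test of that difference was made. Leaving out a library can only raise these counts, since fewer libraries then have to be separated: 26 members had the KO values above WT without KO 1 and 28 without WT 1, and 25 had them below without WT 2. With the values rescaled to a common total in every library (TPM), they were 9 above and 16 below. Of 50 named genes, 40 had a difference that moved by over 1.5 times or turned when 1 library was left out. The 10 that did not were Hspa5, Hsp90b1, Dnajc24, Dnaja3, Dnajc11, Dedd2, Fkbp5, Hscb, Hsf4 and Tsc1.

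**Figure D1:**
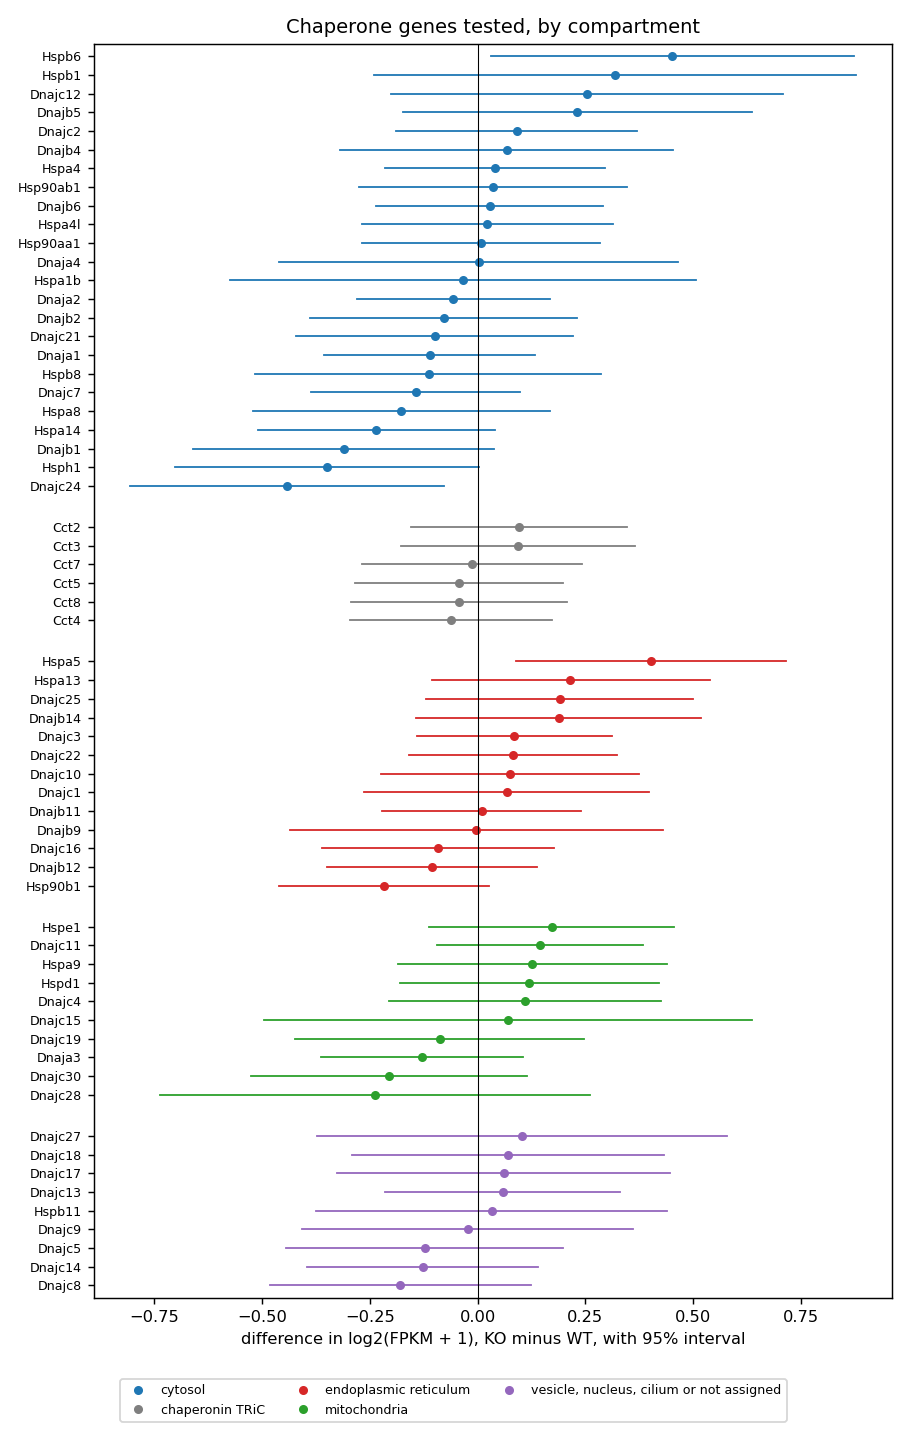
Difference in log2(FPKM + 1), KO minus WT, for the 62 chaperone genes tested, in compartments by colour and sorted within each; points are limma estimates and lines their unadjusted 95% intervals. Intervals of Hspa5 and Hspb6 lie above 0 and that of Dnajc24 below it, and no point lies beyond 0.5.

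In the ER group, Hspa5 stood higher in the KO cells while its partner Hsp90b1 stood lower. Of the other 11 members, Hspa13, Dnajc25 and Dnajb14 had log2 differences of 0.22, 0.19 and 0.19, and none reached an unadjusted p of 0.05. Hspa5 (chr2:34771970-34777547, plus strand, mm10) encodes BiP, the ER Hsp70 that takes in newly made secretory proteins and holds the stress sensors inactive. It stood at 979 and 991 FPKM in the KO libraries, against 772 and 720 FPKM in the WT libraries, which by the mean over all 4 libraries made it the highest chaperone mRNA and rank 62 among the 10407 genes. Within WT it was level with Hspa8, at ratios of Hspa5 to Hspa8 of 1.41 and 1.64 in KO and 0.996 and 1.04 in WT. The 2 groups did not overlap and the KO mean was 1.32 times the WT mean. The log2 difference was 0.40 (95% interval 0.09 to 0.72), with an unadjusted p of 0.0202 and a limma adjusted p of 0.586. Leaving out any 1 library gave 0.35 to 0.45, and the adjusted p never reached the threshold.

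Hsp90b1 (chr10:86690209-86705509, minus strand) encodes GRP94, the ER Hsp90, and its promoter shown above carries the same element as that of Hspa5. It stood at 97.4 and 100 FPKM in KO, against 111 and 120 FPKM in WT, with no overlap. The log2 difference was -0.22 (95% interval -0.46 to 0.03), with a limma adjusted p of 0.691. A pseudogene on the opposite strand spans part of Hsp90b1 and the strand setting of the counting is not given in the sources used here, so reads of the 2 genes may be mixed. Another gene, on the same strand, overlaps Hsp90b1 by 977 bases. The ratio of Hspa5 to Hsp90b1 in FPKM was 10.1 and 9.86 in KO, against 6.98 and 6.00 in WT. The ratio of Hspa5 to Calr, the lectin chaperone calreticulin, was 4.05 and 3.81 in KO, against 2.67 and 2.45 in WT. Both ratios thus lay higher in each KO library than in either WT library, though the exact permutation test of 2 libraries against 2 cannot go below 0.333 and no other test of the ratios was made.

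Dnajc3, the third ER gene with the element, encodes P58IPK, which helps BiP and restrains the kinase PERK. From here on, numbers in parentheses are differences in log2(FPKM + 1), KO minus WT. Dnajc3 stood at 63.6 and 62.4 FPKM in KO and at 58.5 and 60.2 FPKM in WT, apart by 0.08 on the log2 scale (limma adjusted p 0.859). Of the genes with the element, Hspa5 and Dnajc3 had higher KO values and Hsp90b1 lower ones, and none passed the threshold. Whether the element bears on these differences was not tested. Hspa13, a microsomal Hsp70-like ATPase without a substrate-binding domain, stood at 13.5 and 11.2 FPKM in KO and at 10.9 and 10.1 FPKM in WT (0.22, adjusted p 0.761 by limma). Dnajc25, a membrane-spanning J-domain protein, stood at 10.3 and 9.76 FPKM in KO and at 9.38 and 7.99 FPKM in WT (0.19, adjusted p 0.787 by limma). In both the KO values were above the WT values. The Hspa13 difference was 0.09 without KO 1 and 0.34 without KO 2, and that of Dnajc25 was 0.09 without WT 2. A neighbouring gene on the same strand overlaps Dnajc25, so its value is uncertain. Dnajc22, whose fly counterpart wurst acts in endocytosis and whose place in the ER group is less sure, stood at 111 and 103 FPKM in KO and at 100 and 101 FPKM in WT (0.08).

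Among the ER helpers of BiP named outside the fixed rule, after their values were seen, Dnajb9 and Dnajb11 stayed close together. Dnajb9 (ERdj4), which keeps the sensor IRE1 in check, stood at 48.1 and 55.6 FPKM in KO and at 43.8 and 61.4 FPKM in WT. Dnajb11 (ERdj3), a secreted BiP co-chaperone, stood at 36.2 FPKM in both KO libraries and at 35.2 and 36.8 FPKM in WT. For both genes the WT libraries enclosed the KO values. All 13 ER members were tested, of which 9 had a higher and 4 a lower KO mean, with a median log2 difference of 0.08. The KO values were above WT in 6 of the 13 and below in 3, namely in Hsp90b1, Dnajb12 and Dnajc16. Together these are 69.2% of the ER members, beside 38.1% of all genes tested, and no test of that difference was made.

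**Figure D2:**
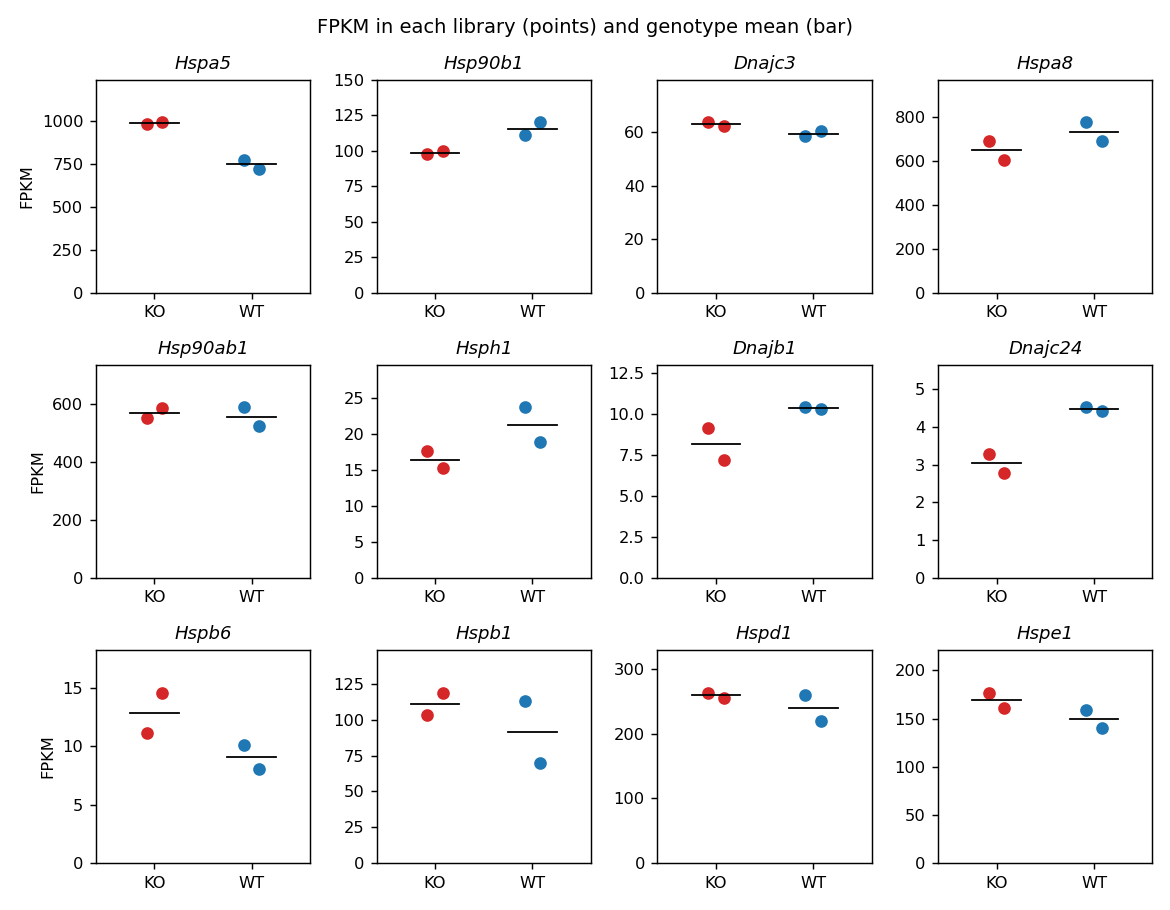
FPKM of 12 chaperone genes in each library (points) with the genotype mean (bar), KO left of WT in every panel, each vertical axis from 0. Hspa5 sits at 979 and 991 in KO above 772 and 720 in WT, Hsp90b1 at 97.4 and 100 below 111 and 120, and the Hsp90ab1 values overlap.

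Summed over the 13 ER members, the level was 1456 and 1463 FPKM in KO, against 1234 and 1214 FPKM in WT. The means were 1459 ± 4.7 FPKM in KO and 1224 ± 14.3 FPKM in WT (SD, n = 2 each), a ratio of 1.19, and the exact permutation p was 0.333, the smallest that 2 libraries against 2 can give. Without Hspa5 the other 12 summed to 477 and 472 FPKM in KO and to 462 and 494 FPKM in WT, a ratio of 0.99. The higher ER sum of the KO libraries was therefore the Hspa5 level, and the remaining ER chaperones overlapped. Over all 80 members the sum was 5108 and 5098 FPKM in KO, against 5087 and 4703 FPKM in WT. ER members made up 28.6% of the chaperone FPKM in KO and 25% in WT.

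**Figure D3:**
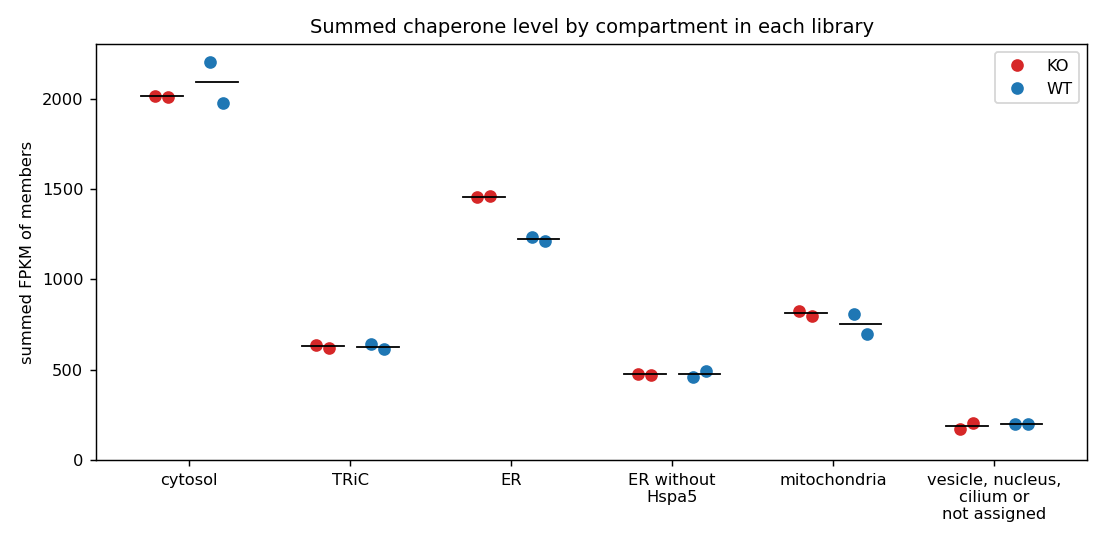
Summed FPKM of the members of each compartment in each library (points) and genotype mean (bar), KO left of WT. ER sums are 1456 and 1463 in KO above 1234 and 1214 in WT, and without Hspa5 the genotypes overlap at 472 to 477 in KO and 462 to 494 in WT.

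The wider ER folding and unfolded protein response list, which holds no members, gave no shared direction. Of its 27 entries 25 were tested, 16 with a higher and 9 with a lower KO mean. None had an adjusted p under 0.05 by limma (lowest 0.674), 2 were higher at an unadjusted p under 0.05, and the median was 0.03. Atf6, the membrane-bound factor that acts on the ER stress element, stood at 35.8 and 42.6 FPKM in KO and at 29.7 and 32.5 FPKM in WT (0.32, adjusted p 0.674 by limma). Sel1l, of the ER degradation ligase and named after its values were seen, was the other, at 28.9 and 28.7 FPKM in KO and at 24.3 and 24.1 FPKM in WT (0.24, adjusted p 0.681 by limma). Both had KO values above the WT values. Herpud1, which acts in ER-associated degradation, stood at 51.5 and 75.8 FPKM in KO and at 64.9 and 106 FPKM in WT (-0.40). Ddit3, the stress-induced factor CHOP, stood at 27.9 and 44.9 FPKM in KO and at 28.7 and 28.5 FPKM in WT (0.30). The Herpud1 difference was -0.06 without WT 2 and -0.75 without WT 1. Herpud1 and Ddit3, widely used stress readouts, each overlapped between the genotypes. With 2 libraries per genotype, an overlap cannot show that the levels were alike. A second entry of Ddit3 was listed at 0 in every library.

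Cytosolic chaperones overlapped between the genotypes in their summed level, with single genes on either side. Their 36 members summed to 2017 and 2012 FPKM in KO and to 2203 and 1980 FPKM in WT. Of 24 tested, 12 had a higher and 12 a lower KO mean, and the median log2 difference was -0.02. It was -0.07 without WT 2 and 0.05 without WT 1, so its sign rested on single libraries. Libraries did not overlap in 3 members with higher KO values (Hspb6, Dnajb5 and Dnajc12) and in 7 with lower ones. Together these are 41.7% of the 24 tested, near the 38.1% of all genes tested. Dnajc12, named after its values were seen, is a co-chaperone of phenylalanine hydroxylase, a liver enzyme, and stood at 1.56 and 1.7 FPKM in KO and at 1.32 and 1.1 FPKM in WT (0.25, adjusted p 0.809 by limma). Hspa14, an Hsp70 that works at the ribosome and was named in the same way, stood at 10.2 and 9.33 FPKM in KO and at 11.6 and 11.7 FPKM in WT (-0.24, adjusted p 0.705 by limma). The genotypes did not overlap for either, and a gene on the same strand overlaps Hspa14.

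Hspa8 encodes Hsc70, the constitutive Hsp70 of the cytosol, and was the most abundant cytosolic chaperone mRNA. It stood at 692 and 604 FPKM in KO and at 775 and 690 FPKM in WT (-0.18, 95% interval -0.52 to 0.17, adjusted p 0.814 by limma). KO 1 lay between the WT values. Of the distinct 75-base stretches in its transcripts 33% recur in other genes, mostly in a pseudogene, so its level is uncertain. Hsp90ab1, the constitutive Hsp90, stood at 552 and 584 FPKM in KO and at 587 and 523 FPKM in WT (0.04, 95% interval -0.28 to 0.35). Hsp90aa1, the inducible form, stood at 181 and 167 FPKM in KO and at 183 and 164 FPKM in WT (0.01, 95% interval -0.27 to 0.28). The KO values of both Hsp90 genes lay within the range of the WT libraries. Their ratio, constitutive to inducible, was 3.05 and 3.50 in KO and 3.21 and 3.19 in WT, and 42.8% of the 75-base stretches of Hsp90aa1 recur in other genes.

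The strictly heat-inducible Hsp70 genes had low levels in both genotypes. Hspa1b stood at 2.45 and 1.5 FPKM in KO and at 2.21 and 1.81 FPKM in WT (-0.03). Hspa1a, under the filter of 1 FPKM, stood at 0.874 and 0.370 FPKM in KO and at 0.609 and 0.426 FPKM in WT. For both genes KO 1 was the highest library and KO 2 the lowest. Hspa8 was 282 and 403 times as high per length as Hspa1b in KO, and 350 and 380 times in WT. Because 55.8% of the 75-base stretches of Hspa1b recur in other genes, all of those in Hspa1a, the split between the twins is uncertain.

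Hsph1 and Dnajb1, partners of Hsc70 and known HSF1 targets, stood lower in KO. Hsph1, the inducible Hsp110, stood at 17.6 and 15.3 FPKM in KO and at 23.7 and 18.9 FPKM in WT (-0.35, 95% interval -0.70 to 0.004, unadjusted p 0.0521, adjusted p 0.684 by limma). Dnajb1, the Hsp40 that starts the Hsp70 cycle, stood at 9.17 and 7.20 FPKM in KO and at 10.4 and 10.3 FPKM in WT (-0.31, unadjusted p 0.0719, adjusted p 0.691 by limma). The KO values were below the WT values in both, and neither passed the threshold. The Hsph1 difference was -0.51 without WT 2 and -0.19 without WT 1, and the Dnajb1 difference was -0.16 without KO 2 and -0.47 without KO 1. Hspa4, the constitutive Hsp110, overlapped at 44.0 and 47.7 FPKM in KO and 46.5 and 42.5 FPKM in WT (0.04).

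Dnajc24 had the largest negative difference of all members. It encodes the J-domain protein of diphthamide synthesis, which modifies elongation factor eEF2, and lies at chr2:105966709-106003549 on the minus strand. It stood at 3.29 and 2.78 FPKM in KO and at 4.52 and 4.43 FPKM in WT, with no overlap (-0.44, 95% interval -0.81 to -0.08, unadjusted p 0.0248, adjusted p 0.614 by limma). The difference ranged from -0.53 to -0.35 with 1 library left out. With the low levels of this gene the log2(FPKM + 1) scale understates the ratio, which was 0.68 between the means.

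Small heat shock proteins held the largest positive difference of the members and a wide spread, with median distances of 0.36 between the KO libraries and 0.29 between the WT libraries over the 3 tested. Hspb6, or Hsp20, known best from muscle, stood at 11.1 and 14.6 FPKM in KO and at 10.1 and 8.08 FPKM in WT (0.45, 95% interval 0.03 to 0.87, unadjusted p 0.0397, adjusted p 0.671 by limma). Its groups did not overlap, and the difference was 0.63 without KO 1 and 0.27 without KO 2. Hspb1, the cytoskeleton-binding Hsp25, stood at 103 and 119 FPKM in KO and at 113 and 69.7 FPKM in WT (0.32, adjusted p 0.804 by limma). WT 2 alone was low, and without that library the difference was -0.02. A pseudogene shares 46.4% of the 75-base stretches of Hspb1. Hspb8, which works with Bag3 in removing misfolded proteins, stood at 142 and 194 FPKM in KO and at 175 and 185 FPKM in WT (-0.11), with the KO values on either side of the WT values. The other 4 members of the family, Hspb2, Hspb3, Hspb7 and Hspb9, were at or near 0 everywhere.

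**Figure D4:**
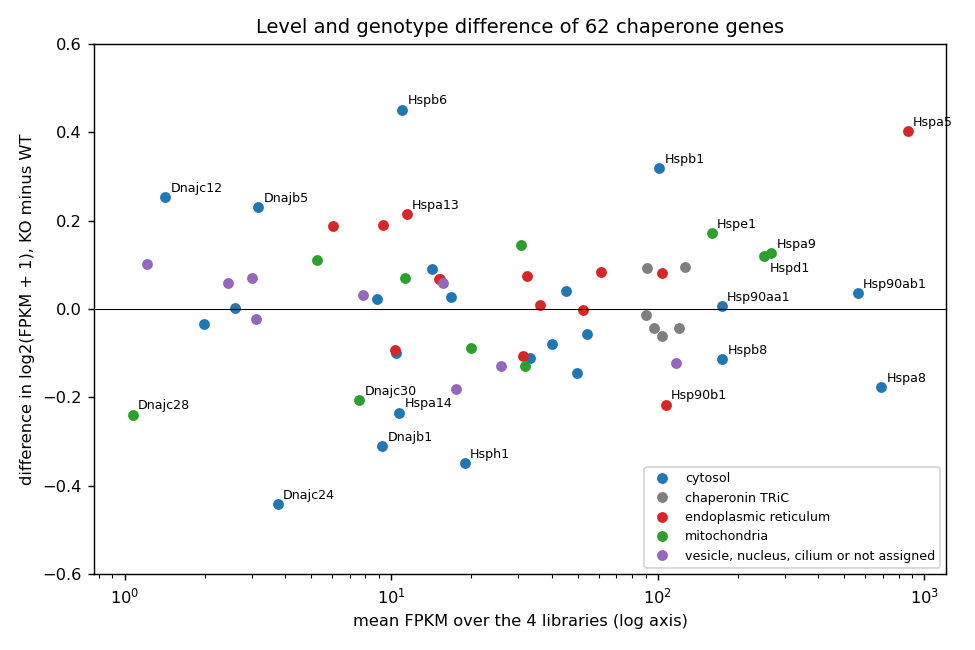
Difference in log2(FPKM + 1), KO minus WT, against the mean FPKM over the 4 libraries (log axis) for the 62 chaperone genes tested, coloured by compartment. Hspa5, at the right edge, combines the highest level with a difference of 0.40, while Hspa8 and Hsp90ab1 at similar levels lie at -0.18 and 0.04.

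Genes that regulate HSF1 and other HSF1 targets gave no adjusted call. Of the 8 HSF1 regulators 6 were tested and 0 had an unadjusted p under 0.05 by limma (median -0.05), with Hsf2 at 0.13, Hsf4 at -0.10 and Eef1a1, an elongation factor said to take part in the heat shock response, at -0.10. Of 18 HSF1 target co-chaperones and related genes, all tested, 0 were higher and 1 was lower at an unadjusted p under 0.05, with a median of -0.03 and a lowest limma adjusted p of 0.541. The lower one was Dedd2, a death effector domain protein, at 6.68 and 7.78 FPKM in KO and 10.2 and 11.5 FPKM in WT (-0.53). The genotypes did not overlap for Dedd2. Sqstm1, the autophagy receptor p62, stood at 1726 and 1449 FPKM in KO and at 1387 and 1144 FPKM in WT (0.33). Ubb, a polyubiquitin gene, lay at 0.23, with its KO values inside the WT range. Among members, the 15 tested genes whose windows hold a heat shock element had a median of 0.07, with 10 higher and 5 lower, and the 34 with a window but no element had a median of -0.02, with 15 higher and 19 lower. The 13 tested members with no window had a median of 0.07 as well, with 9 higher and 4 lower. Hspa8, Hsp90aa1, Hsp90ab1 and Hspa9 are among these 13. Dnajb1, a known HSF1 target, is among the 34 without an element. The split follows the letters searched and does not separate HSF1 targets from other members.

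Co-chaperones of Hsp90 and Hsp70 outside the set included the largest difference of the pathway lists. Of the 20 listed, all tested, 5 had a higher and 15 a lower KO mean, the median was -0.07, and 2 were lower at an unadjusted p under 0.05. The lowest adjusted p by limma was 0.487, that of Fkbp5, the glucocorticoid-inducible immunophilin that sits on the Hsp90 complex of the glucocorticoid receptor. Fkbp5 stood at 11.1 and 8.84 FPKM in KO and at 16.7 and 20.7 FPKM in WT (-0.85, 95% interval -1.23 to -0.46, unadjusted p 0.00184). Pih1d1, of the R2TP co-chaperone complex, stood at 18.6 and 20.8 FPKM in KO and at 22.9 and 27.5 FPKM in WT (-0.33). In both genes the KO values were below the WT values. Tsc1, a negative regulator of mTORC1 that also binds Hsp90, stood at 9.58 and 9.94 FPKM in KO and at 11 and 11.8 FPKM in WT (-0.20), again without overlap.

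The ring chaperonin TRiC, which folds actin and tubulin, had the lowest median absolute log2 difference of the compartment groups, at 0.05. Its subunits assemble in equal numbers, and their mean levels over the 4 libraries spanned 90.1 to 126 FPKM, a ratio of 1.40 between the highest and the lowest of the 6 tested. With Tcp1, the alpha subunit outside the symbol rule, the ratio was 1.45. Cct2, the highest, stood at 137 and 124 FPKM in KO and at 122 and 121 FPKM in WT (0.10), with the KO values above. Cct4 stood at 98.3 and 104 FPKM in KO and at 106 and 105 FPKM in WT (-0.06), with the KO values below. Cct3 lay at 0.09, Cct5 at -0.04, Cct8 at -0.04 and Cct7 at -0.01, each with overlapping libraries. The summed level was 636 and 622 FPKM in KO and 640 and 613 FPKM in WT. The 95% intervals of the 6 subunits lay between -0.30 and 0.36, so larger differences than these fall outside the intervals. Cct6b, a testis form, reached at most 0.0335 FPKM, and Cct6a was not analysed here.

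The list of prefoldin, which hands unfolded actin and tubulin to TRiC, and of other TRiC cofactors had a median of 0.02 over 10 genes, all tested. By limma 0 of them reached an unadjusted p of 0.05, and adjusted values began at 0.724. Among the 10 is Tcp1, itself a TRiC subunit, which the list of HSF1 target co-chaperones holds too. Vbp1, prefoldin subunit 3, stood at 10.2 and 8.99 FPKM in KO and at 11 and 11.9 FPKM in WT (-0.24), with the KO values below. Pdcl3, a phosducin-like TRiC cofactor, stood at 46.8 and 70.3 FPKM in KO and at 48.2 and 49.0 FPKM in WT (0.24), where KO 2 alone was high. Pfdn1 lay at 0.08.

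In mitochondria, the folding chamber and its lid stood slightly higher in KO. For the pair, the median log2 difference between genotypes was 0.15. Between single libraries the median distance was 0.21 for WT 1 and WT 2 and 0.09 for KO 1 and KO 2. The genotype difference compares means of 2 libraries, so these values are not on the same footing. Without WT 2 the difference was 0.001 for Hspd1 and 0.08 for Hspe1. Hspd1 (chr1:55077835-55088243, minus strand) encodes Hsp60, and stood at 264 and 256 FPKM in KO and at 260 and 220 FPKM in WT (0.12, adjusted p 0.845 by limma). Hspe1 (chr1:55088132-55091307, plus strand) encodes its lid Hsp10, and stood at 177 and 161 FPKM in KO and at 159 and 140 FPKM in WT (0.17, adjusted p 0.791 by limma). The genotypes overlapped for Hspd1 and did not for Hspe1. The promoter stretch shown above lies in windows of both genes, and the ratio of Hspd1 to Hspe1 was 1.49 and 1.59 in KO and 1.63 and 1.57 in WT. Their transcripts overlap by 112 bases, and 31% and 14.6% of the 75-base stretches of Hspd1 and Hspe1 recur in other genes.

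Hspa9, or mortalin, the Hsp70 that pulls proteins into the matrix, stood at 284 and 270 FPKM in KO and at 277 and 232 FPKM in WT (0.13, adjusted p 0.841 by limma). Its KO values were above WT 2 and on both sides of WT 1. Dnajc11, a J-domain protein of the cristae-organising complex, stood at 32.7 and 32.0 FPKM in KO and at 30.1 and 28.2 FPKM in WT (0.15). Dnaja3, the Hsp40 that serves mortalin, stood at 30.8 and 29.8 FPKM in KO and at 34.0 and 32.6 FPKM in WT (-0.13). Dnajc30, which binds the ATP synthase, stood at 6.60 and 7.38 FPKM in KO and at 8.75 and 7.70 FPKM in WT (-0.21). The KO values were above WT in Dnajc11 and below it in Dnaja3 and Dnajc30. The Dnajc30 value is uncertain because 22.8% of its 75-base stretches lie in Bud23 on the other strand.

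All 10 mitochondrial members were tested, with 6 higher and 4 lower KO means and a median of 0.09, which was -0.08 without WT 2. Libraries were apart in 6 of them, with Hspe1, Dnajc11 and Dnajc4 higher in KO and Dnaja3, Dnajc28 and Dnajc30 lower. That is 60% of the 10, beside 38.1% of all genes tested, and no test of that difference was made. The mitochondrial members summed to 827 and 798 FPKM in KO and to 811 and 695 FPKM in WT, with KO 2 below WT 1. Among 16 import and protease partners, all tested, 12 had a higher and 4 a lower KO mean, with a median of 0.13, and limma adjusted values began at 0.66. Higher at an unadjusted p under 0.05 was 1 gene, Hscb, the J-domain protein of iron-sulphur cluster assembly, at 3.01 and 3.38 FPKM in KO and 2.29 and 1.84 FPKM in WT (0.46). Htra2, a protease of the intermembrane space, stood at 30.0 and 21.6 FPKM in KO and at 21 and 16.5 FPKM in WT (0.43). Grpel2, an exchange factor for mortalin, stood at 13.3 and 12.4 FPKM in KO and at 14.6 and 18.6 FPKM in WT (-0.34). The Htra2 difference was 0.20 without KO 1 and 0.66 without KO 2, and that of Grpel2 was -0.17 without WT 2 and -0.50 without WT 1. None of these 3 genes overlapped between the genotypes, and none passed the adjusted threshold.

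The last group, of vesicles, the nucleus, cilia or no assigned place, had 9 tested members, 5 with a higher and 4 with a lower KO mean and a median of 0.03. Dnajc5, the cysteine string protein of secretory vesicles, stood at 100 and 124 FPKM in KO and at 119 and 124 FPKM in WT (-0.12). KO 1 alone was low, and without it the difference was 0.03. Dnajc14 stood at 23.2 and 26.3 FPKM in KO and at 27.8 and 26.4 FPKM in WT (-0.13), and Dnajc8, a nuclear protein that accompanies the splicing machinery, at 16.1 and 16.5 FPKM in KO and at 20.4 and 16.9 FPKM in WT (-0.18). The KO values of both were below the WT values, for Dnajc14 only just, at 26.3 FPKM in KO 2 and 26.4 FPKM in WT 2. The difference was -0.04 for Dnajc14 without KO 1 and -0.05 for Dnajc8 without WT 1. Of the 75-base stretches of Dnajc14 17.3% recur in other genes, and a gene on the same strand overlaps it. Dnajc17 and Dnajc18 were the 2 members of the group with both KO values above WT, at 0.06 and 0.07. Libraries were apart in 44.4% of the group, near the 38.1% of all genes tested. Dnajc27, a Rab-like GTPase with a J-domain, stood at 1.28 and 1.31 FPKM in KO and at 0.997 and 1.29 FPKM in WT (0.10).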

How the data were processed

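RNA of 4 primary hepatocyte cultures, 2 KO and 2 WT, was sequenced from stranded TruSeq mRNA libraries, per the labels' protocols. STAR 2.5.0, Cufflinks, Cuffdiff 2.2.1 and mm10 are named, per the submitters' processing notes. For the annotation, strand setting and filters, nothing is given in the sources used here. In the deposited gene table the authors gave 1 value per library as FPKM, scaled by transcript length and library size, a unit inferred from these tools and from values that are not whole. Cufflinks divides fragments among transcripts, so counts were not recovered, and an exact 0 can be a failed estimate. Depth was estimated from the smallest steps, assuming 200-base fragments.

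Identifiers were matched to GENCODE M21. Values were transformed as log2(FPKM + 1), which understates differences of low genes. The 10407 genes averaging 1 FPKM or more were fitted with limma 3.58.1 in R 4.3.3 (lmFit, eBayes with trend, genotype only), two-sided, Benjamini-Hochberg over all of them, threshold 0.05; the code was tested on simulated data. Prom1 and members under the filter were read from a fit to 15152 genes. Values in parentheses after FPKM are log2 differences, KO minus WT.

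The members, lists and compartments were chosen with earlier results of these data known, so no set test was made. Summed FPKM per compartment were compared by an exact two-sided permutation test of 2 libraries against 2, which cannot go below 0.333. Named genes are Prom1, 22 core chaperones, in each compartment the 3 highest by mean FPKM and the 4 with the largest moderated t, any member of at least 1 FPKM listed at 0 in a library (there was none), and 3 genes per pathway list by log2 difference; others were chosen after their values were seen. Motifs were searched in RefSeq promoter windows, and 75-base stretches of GENCODE transcripts were compared between genes. Alternatives were pseudocounts of 0.1 and 5, no filter, a filter of 5 FPKM, a common upper quartile, TPM, no trend, a replicate block and each library left out.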

Additional observations from a re-analysis of the deposited data

How the results depend on the processing

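No member was called under any of the 12 alternatives (0 by limma), and the smallest adjusted p of a member lay between 0.285 and 1. Of 50 named genes with alternatives, 36 kept their direction in every one that gave a value. The other 14 turned only when a library was left out. Hspa5, Hsp90b1, Hsph1, Dnajb1, Hspb6 and Dnajc24 are among the 36. In these genes both KO values lay on the same side of both WT values. Leaving out a library could therefore not turn them, and their kept direction is no further support. Without a filter 1 member was higher and 2 lower at an unadjusted p under 0.05, and with a filter of 5 FPKM 0 were lower and the median of the vesicle, nucleus, cilium or not assigned group was -0.12, with fewer genes tested. Rescaled to TPM, 9 members had KO values above WT. With the replicate block 2 members were lower at that p, 1054 genes of all had it and the lowest member adjusted p was 0.285; the labels do not say that equal numbers mark a pair, and the deviations of KO 1 and WT 1 correlated at 0.151 across genes.

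Leaving out 1 library, where the lone library of a genotype is assumed to vary like the others, gave 0 to 8 genes called over all genes (5 without KO 1, 8 without WT 1). Members at an unadjusted p under 0.05 numbered 0 to 2 higher and 0 to 3 lower, and those apart 21 to 28 higher and 21 to 25 lower, since fewer libraries have to be separated. Medians ranged from -0.047 to 0.036 over all members, -0.055 to 0.020 in TRiC, -0.074 to 0.047 in the cytosol, 0.025 to 0.138 in the ER and -0.079 to 0.174 in mitochondria.

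Over these 4 settings the differences of the genes that turned ranged from -0.338 to 0.109 for Hspb8, -0.073 to 0.087 for Hsp90aa1, -0.120 to 0.031 for Cct8, -0.277 to 0.030 for Dnajc5, -0.267 to 0.198 for Hspa1b, -0.049 to 0.120 for Hsp90ab1 and -0.023 to 0.104 for Hspa4. They ranged from -0.077 to 0.049 for Cct7, -0.034 to 0.634 for Ddit3, -0.053 to 0.523 for Pdcl3, -0.156 to 0.623 for Ubb, -0.024 to 0.662 for Hspb1, -0.001 to 0.253 for Hspa9 and -0.008 to 0.194 for Cct3. The cause was not tested. Prom1 and Hspa1a, under the filter, have no alternative values. Depth limits the low members, since at 1 FPKM a 2 kb transcript rests on 27.2 to 31.2 fragments.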
